A study of Canis lupus familiaris with 6 samples.

Results

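Aminoacyl-tRNA synthetases were followed across 6 canine osteosarcoma lines, 3 of which formed tumours in mice and 3 of which did not. The set held 36 enzyme genes, 20 that act in the cytosol and 16 that act in mitochondria, taken by gene name. It was chosen with earlier results of these data known. A gene was counted when a probe set carried its name and no other, and its brightest probe set over the 6 arrays stood for it. By that rule 33 of the 36 were measured, on 105 probe sets. DARS, GARS and MARS2 had no such probe set. After a filter on dim probe sets, 30 of the 33 were among the 9145 genes tested, 18 cytosolic and 12 mitochondrial, while LARS2, PARS2 and WARS2 fell below it.

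The lines UWKOS1, UWKOS3 and UWKOS7 are labelled tumorigenic, and UWKOS2, UWKOS6 and UWKOS8 non-tumorigenic. All are primary cultures of canine osteosarcoma, a bone tumour, that were kept in the same medium, which held 10% serum and added non-essential amino acids, handled alike and harvested at 70 to 80% confluency. Each line gave 1 Affymetrix array from cultured cells, not from the grafts, and neither normal bone cells nor a reference line were included. Values are log2 signals, differences are tumorigenic minus non-tumorigenic on that scale, and ± gives the SD over 3 lines. The animals behind the lines are not described in the labels, and p-values measure the spread between these lines only.

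Each synthetase joins an amino acid to its matching tRNA, which is the step that sets the genetic code. Cytosolic enzymes feed the main ribosomes, and a separate, nuclear-encoded set feeds the ribosomes inside mitochondria. A group of cytosolic enzymes is held in the multisynthetase complex by the scaffold proteins AIMP1, AIMP2 and EEF1E1. Uncharged tRNA activates the kinase GCN2 (EIF2AK4) and, through it, the transcription factor ATF4, which is known to induce amino acid synthesis genes and many cytosolic synthetases.

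RARS, which charges tRNA with arginine, and VARS2, the mitochondrial valine enzyme, rose in the tumorigenic lines, and no synthetase fell. These were 2 of 30 tested, or 6.67%, beside 12.1% of all genes tested (limma adjusted p under 0.05). The share was thus not above that of genes in general, of which 7.5% passed as higher and 4.63% as lower. The median difference was 0.13 over the 30 synthetases and 0.03 over all tested genes, with 20 of the 30 positive. Counted without a model, 8 synthetases had all tumorigenic lines above all others and 3 had them all below, beside 21.7% and 16.6% of all genes. With 1 line left out, the number of synthetases called was 0 without UWKOS2 (5.23% of all genes), UWKOS3 (3.89%), UWKOS6 (0.131%) or UWKOS8 (3.64%), 1 without UWKOS1 (6.43%) and 2 without UWKOS7 (14.4%). The gene called without UWKOS1 was VARS (1.18), and those called without UWKOS7 were RARS and, as lower, CARS2. Without both UWKOS6 and UWKOS8, whose control transcripts gave the largest differences between transcript ends, 0 of 30 passed, but then only 1 of 9145 genes (0.0109%) passed at all. Scaling changed the count: 5 synthetases were called with arrays centred on hybridization controls (RARS, VARS2, TARS, VARS and YARS2; 15.6% of all genes), where the calls over all genes went from 686 higher and 423 lower to 1121 and 307. It was RARS alone, 1 under quantile normalization (11.7%), 1 with centring on the 75th percentile (11.2%) and 1 of 23 with the upper-quartile filter, which left VARS2 out of the test (17.1% of 5021 genes), while an intensity trend and a robust fit (11.8% each) gave RARS and VARS2.

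RARS read 11.70 in UWKOS1, 11.96 in UWKOS3 and 11.76 in UWKOS7, against 11.18 in UWKOS2, 11.02 in UWKOS6 and 10.96 in UWKOS8. The groups did not overlap, and the spread within each was small. The means were 11.81 ± 0.14 and 11.05 ± 0.11 (SD, n = 3), a difference of 0.75 (SE 0.15, limma adjusted p = 0.0329) or 1.68-fold. RARS was measured by 3 probe sets, and all of them passed in a fit over every probe set, with differences of 0.75, 0.70 and 1.67 (limma adjusted p = 0.0343, 0.0315 and 0.0376). In that fit 5.05% of 42924 probe sets passed, 3.06% as higher and 1.99% as lower, and among the 105 synthetase probe sets those of RARS were the 3 that passed. The gene kept its direction but not its call with any of the lines left out except UWKOS7, with a difference between 0.68 and 0.81 in the fits without UWKOS1, UWKOS2, UWKOS3, UWKOS6 or UWKOS8 (limma adjusted p between 0.0552 and 0.132).

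VARS2 read 7.89 in UWKOS1, 7.85 in UWKOS3 and 7.72 in UWKOS7, against 6.89 in UWKOS2, 6.69 in UWKOS6 and 7.29 in UWKOS8. All tumorigenic lines lay above the others, and UWKOS8 was nearest to them. The difference was 0.86 (SE 0.20, limma adjusted p = 0.0408), or 1.82-fold. It rests on 1 probe set. The call ended when any line was left out (limma adjusted p between 0.0519 and 0.143), under quantile normalization (0.0511) and with arrays centred on the 75th percentile (0.0531), while the difference in these fits lay between 0.73 and 1.03.

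**Figure D1:**
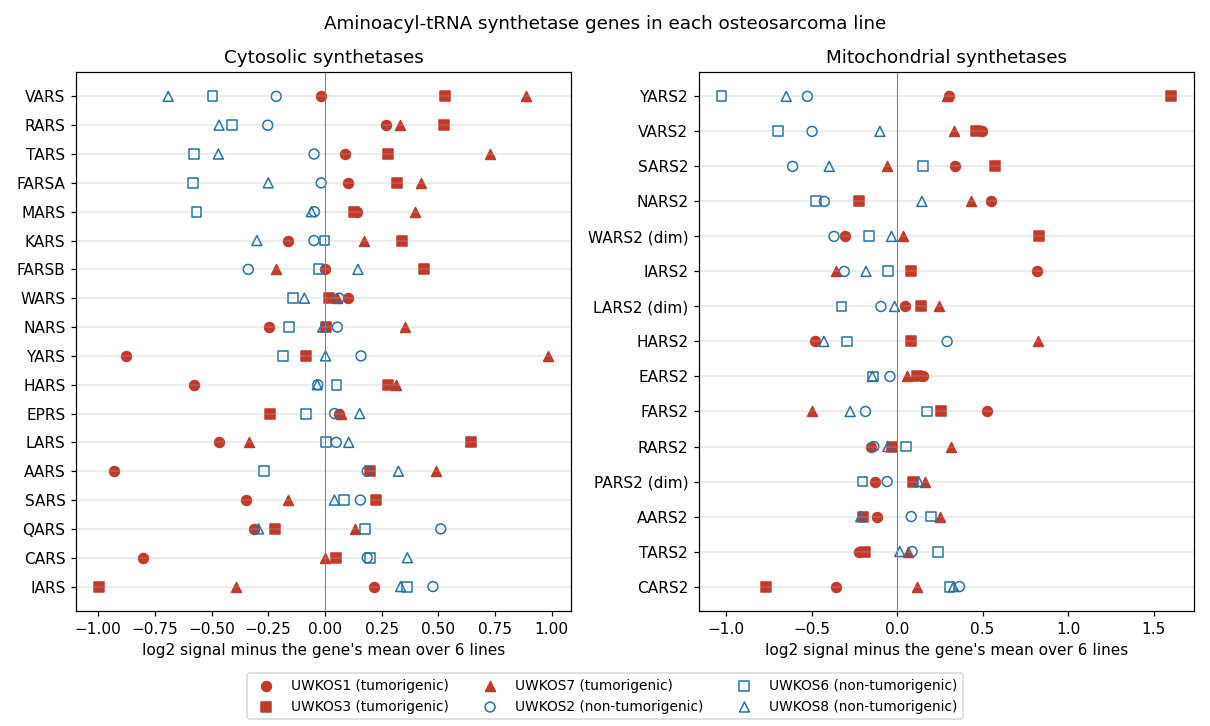
The plot shows, for each of the 33 measured synthetase genes, the log2 signal of its brightest probe set in each line minus the gene's mean over the 6 lines; filled red symbols are tumorigenic lines, open blue symbols non-tumorigenic, and "dim" marks the 3 genes below the filter. Red symbols all lie right of blue in RARS, VARS and VARS2, and UWKOS1 (filled circles) lies far left of the other lines in YARS, AARS and CARS.

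Among the cytosolic enzymes, the cluster of higher values beyond RARS came from VARS, TARS, FARSA and MARS, none of which passed. VARS, the valine enzyme, read 8.70, 9.25 and 9.61 in UWKOS1, UWKOS3 and UWKOS7 and 8.51, 8.22 and 8.03 in UWKOS2, UWKOS6 and UWKOS8. Its difference of 0.93 (SE 0.27, limma adjusted p = 0.0701) was the largest of the cytosolic set, with UWKOS1 close to UWKOS2. TARS, the threonine enzyme, read 10.92, 11.11 and 11.56 against 10.78, 10.25 and 10.36, in the same order of lines. It differed by 0.73 (limma adjusted p = 0.0925). Here UWKOS2 lay nearer to the tumorigenic UWKOS1 than to the other lines of its own group.

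FARSA and FARSB are the subunits of the cytosolic phenylalanine enzyme, and they did not share a pattern. FARSA, the catalytic subunit, read 9.53, 9.74 and 9.85 in the tumorigenic lines and 9.41, 8.84 and 9.18 in the others, a difference of 0.57 (limma adjusted p = 0.11) without overlap. FARSB read 11.65, 12.09 and 11.43 against 11.31, 11.62 and 11.79, with overlapping groups and a difference of 0.15 (95% interval -0.41 to 0.70). The difference between the subunits was not tested. MARS, which charges methionine, also kept its groups apart, at 9.75, 9.74 and 10.01 against 9.56, 9.04 and 9.55 (0.45, limma adjusted p = 0.183).

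On their brightest probe sets, IARS and CARS were the cytosolic enzymes with all tumorigenic lines lower. With probe sets averaged, IARS turned to 0.10 and CARS was at -0.11. IARS, for isoleucine, read 9.43, 8.21 and 8.82 in UWKOS1, UWKOS3 and UWKOS7 and 9.69, 9.57 and 9.55 in the others, a difference of -0.78 (limma adjusted p = 0.141). The non-tumorigenic lines were tightly grouped and the tumorigenic ones were not. CARS, for cysteine, read 10.37, 11.22 and 11.17 against 11.36, 11.37 and 11.53 (-0.50, limma adjusted p = 0.24), and UWKOS1 was the line that stood apart. Without UWKOS1 its difference was -0.22, and its probe sets above the filter ran from -0.50 to 0.47. The other 11 cytosolic genes overlapped between the groups, with differences from -0.26 for QARS to 0.23 for KARS. Their intervals were wide where the lines differed most, as in YARS (0.02, 95% interval -1.07 to 1.11) and AARS (-0.16, -1.11 to 0.78), and narrow in WARS (0.11, -0.23 to 0.46), EPRS (-0.07, -0.47 to 0.32) and KARS (0.23, -0.23 to 0.69).

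The mitochondrial enzymes had a median difference of 0.25 over the 12 tested, against 0.05 over the 18 cytosolic ones, and 9 of the 12 were positive against 11 of the 18. Of the 12, YARS2 (mean 6.90 against 5.43) and SARS2 (6.46 against 5.89) averaged above the filter value in the tumorigenic group only. Their entry into these counts therefore leaned on the group where they were high. With the upper-quartile filter the mitochondrial median was 0.089 over 5 genes. In each compartment 1 gene passed, and the difference between compartments was not tested. The cytosolic median was -0.02 without UWKOS7 and 0.24 without UWKOS1. YARS2, for tyrosine, had the largest difference of any synthetase, at 1.47 (SE 0.39, limma adjusted p = 0.058), and did not pass. It read 6.47, 7.77 and 6.46 in UWKOS1, UWKOS3 and UWKOS7 and 5.64, 5.14 and 5.52 in UWKOS2, UWKOS6 and UWKOS8. The lines separated, UWKOS3 was far above the rest, and the non-tumorigenic values lay below the filter value of 6.07, where a signal is not known to exceed background, so the size of this difference is uncertain.

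CARS2, the mitochondrial cysteine enzyme, was the mitochondrial gene with all tumorigenic lines lower, at 9.61, 9.20 and 10.08 against 10.33, 10.27 and 10.29 (-0.67, limma adjusted p = 0.115). It passed when UWKOS7, the highest tumorigenic line, was left out (-0.89, limma adjusted p = 0.0387). SARS2, for serine, read 6.52, 6.75 and 6.12 against 5.57, 6.33 and 5.78, with UWKOS6 above UWKOS7 (0.57, limma adjusted p = 0.197). EARS2, for glutamate, differed by only 0.22 (limma adjusted p = 0.327), yet its groups did not overlap, at 6.71, 6.68 and 6.62 against 6.52, 6.42 and 6.42.

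The remaining mitochondrial genes tested, NARS2, TARS2, IARS2, HARS2, FARS2, RARS2 and AARS2, overlapped between the groups, with differences from -0.23 for TARS2 to 0.50 for NARS2. On its brightest probe set IARS2 was high in UWKOS1 alone, at 10.27 against 9.10 to 9.53 in the other lines. Its other probe sets differed by 0.72, 1.14 and 0.78, in order of brightness, and none passed. All tumorigenic lines were higher on those at 0.72 and 1.14, while the groups overlapped on the one at 0.78. Of the 3 genes below the filter, fitted without it, LARS2 had all tumorigenic lines higher (5.90, 5.99 and 6.10 against 5.76, 5.53 and 5.84; 0.29, limma adjusted p = 0.259), and WARS2 (0.38) and PARS2 (0.09) overlapped. In that fit 6.62% of 15115 genes passed and 31.1% had groups without overlap.

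**Figure D2:**
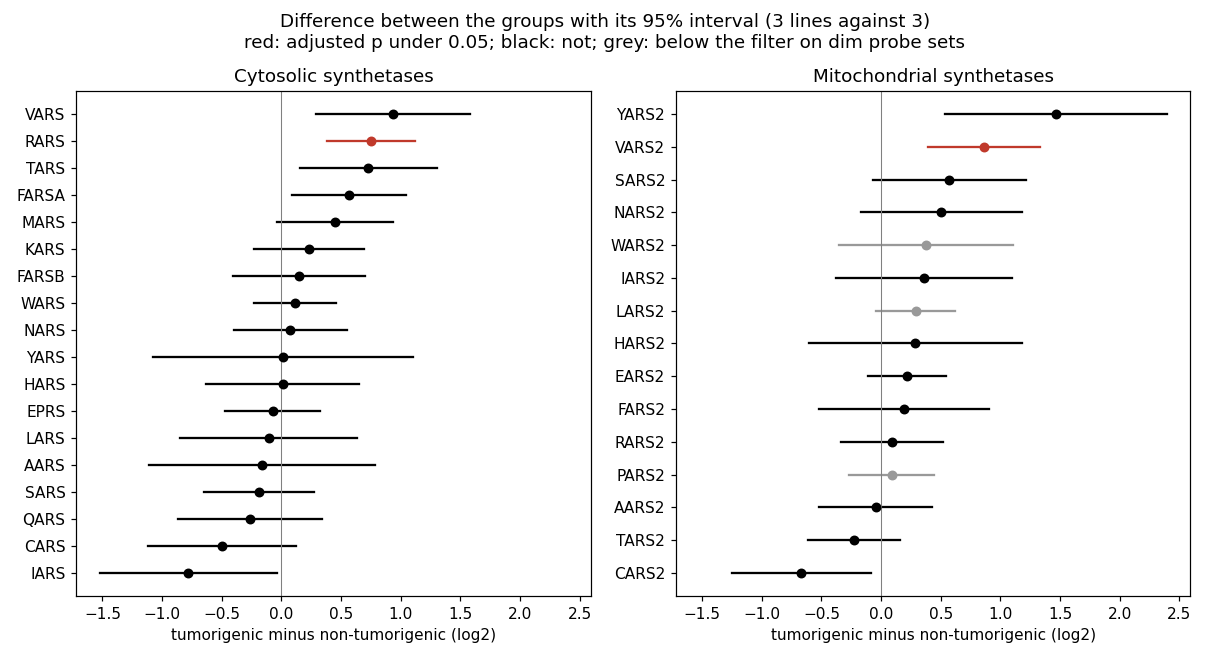
Points give the tumorigenic minus non-tumorigenic difference in log2 signal for each synthetase, and bars its 95% interval from limma, with 3 lines in each group; red marks an adjusted p under 0.05 and grey the 3 genes below the filter. RARS (0.75) and VARS2 (0.86) are red, YARS2 (1.47) has the largest difference and a wide interval, and IARS (-0.78) and CARS2 (-0.67) lie at the lower end.

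Enzymes for the same amino acid gave both similar and unlike differences. For 13 pairings both the cytosolic and the mitochondrial gene were tested, FARS2 being set against each subunit of its cytosolic counterpart. In 8 of them the mitochondrial difference was the larger, and in 4 (EPRS/EARS2, IARS/IARS2, SARS/SARS2 and TARS/TARS2) the signs were opposite. With probe sets averaged, none of these 4 kept opposite signs, since EPRS was then at 0.14, IARS at 0.10, SARS at 0.24 and TARS2 at 0.12. For valine both genes had positive differences, at 0.93 for VARS and 0.86 for VARS2, each on 1 probe set. For cysteine both were negative, at -0.50 for CARS and -0.67 for CARS2, or -0.11 and -0.62 with probe sets averaged. For arginine and threonine the cytosolic gene had the larger difference, at 0.75 for RARS against 0.09 for RARS2 and 0.73 for TARS against -0.23 for TARS2, whose other probe set above the filter was at 0.46. Tyrosine had 0.02 for YARS and 1.47 for YARS2, which passed the filter only through the tumorigenic lines (mean 6.90 against 5.43). SARS2 likewise had a mean above the filter value in the tumorigenic group only (6.46 against 5.89). Both genes enter the count of 8, and SARS2 also enters the opposite signs of SARS/SARS2. Isoleucine had -0.78 for IARS and 0.36 for IARS2, or 0.10 and 0.75 with probe sets averaged. HARS and HARS2, the cytosolic and mitochondrial histidine enzymes, are adjacent in the RefSeq gene order of the dog, and differed by 0.01 and 0.29. None of these contrasts between genes was tested.

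The structural classes of the enzymes, which carry unrelated catalytic folds, gave medians close to each other. Class I had 2 of 16 called with a median of 0.10, and class II had 0 of 15 called with a median of 0.15. The share called was 12.1% over all genes, and the bifunctional EPRS was counted in both classes. An unadjusted limma p under 0.05 was found for 6 of 16 in class I and 2 of 15 in class II, beside 32% of all genes. All tumorigenic lines were higher in 6 and 2, beside 21.7% of all genes, and lower in 3 and 0, beside 16.6%. The 6 include YARS2, which passed the filter only through the tumorigenic lines. The difference between the classes was not tested. Of the multisynthetase complex, 7 of 8 enzymes were tested, and their median difference was -0.07. RARS was the enzyme of this complex that passed, while LARS (-0.11), EPRS (-0.07), QARS (-0.26), IARS, MARS and KARS did not.

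The scaffolds of that complex had positive differences on all 3 genes. AIMP1, which binds RARS in the complex, rose by 0.77 (SE 0.16, limma adjusted p = 0.0336). It read 11.39, 11.69 and 11.62 in UWKOS1, UWKOS3 and UWKOS7 and 10.93, 10.74 and 10.71 in UWKOS2, UWKOS6 and UWKOS8, with no overlap. EEF1E1 differed by 0.64 (limma adjusted p = 0.119), also without overlap, and AIMP2 by 0.39 (limma adjusted p = 0.276), with overlap.

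In some synthetase genes tumorigenic lines lay at opposite ends of the range. UWKOS7 was the highest line in 8 of 18 cytosolic genes, beside 16.6% of all tested genes. UWKOS1 was the lowest line in 8, beside 22.9%, although both lines are tumorigenic. These counts are separate, and the cytosolic genes in both were YARS, AARS, HARS and NARS. How often both held over all genes was not counted. Among the 12 mitochondrial genes UWKOS1 was the highest in 5, beside 21.1% of all genes, and the lowest in 3, beside 22.9%, and UWKOS7 was the highest in 3. The median deviation of UWKOS7 from a gene's mean was positive in both sets, at 0.24 and 0.18, and the difference between the compartments was not tested. YARS shows the cytosolic pattern most clearly, at 8.02 in UWKOS1, 8.82 in UWKOS3 and 9.88 in UWKOS7, with 9.06, 8.71 and 8.90 in the non-tumorigenic lines between them. AARS, for alanine, read 10.44 in UWKOS1 and 11.86 in UWKOS7, with the other lines from 11.10 to 11.70. HARS read 9.13 in UWKOS1 and 9.67 to 10.02 in all other lines. In these 3 genes the tumorigenic lines spread more widely than the others. The median range over the 6 lines was 1.01 for the synthetases and likewise 1.01 for all tested genes.

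Genes of the ATF4 and amino acid response also had UWKOS1 low and UWKOS7 high most often. Of 26 tested, 1 rose and 0 fell (3.85% called, beside 12.1% of all genes), and the median difference was 0.02. UWKOS1 was lowest in 13 and UWKOS7 highest in 13. ATF4 itself read 12.74 in UWKOS1, 12.92 in UWKOS3 and 13.47 in UWKOS7 and 13.24, 13.00 and 12.99 in the others (-0.03, limma adjusted p = 0.932). XPOT, the tRNA exporter, was lowest in UWKOS1 and highest in UWKOS7, at 12.15. CTH, which makes cysteine from cystathionine, was the tested member that rose (2.32, limma adjusted p = 0.0373). Below the filter, CBS rose in the fit without it (1.60, limma adjusted p = 0.0161), where 6.62% of genes passed. Its non-tumorigenic mean of 4.85 is not known to exceed background. SESN2, SLC6A9, SLC7A11 and STC2, also below the filter, had negative differences and did not pass. Of the 26 differences, 13 were positive and 13 negative. All tumorigenic lines were higher in 3 genes and lower in 2, beside 21.7% and 16.6% of all genes. The 3 were CTH, ALDH18A1 (0.72) and SLC7A1 (0.47). The 2 were NUPR1 (-2.05) and ASNS, asparagine synthetase and a classical ATF4 target (-0.84, limma adjusted p = 0.0996). The kinase EIF2AK4 differed by -0.03, with a 95% interval from -0.50 to 0.44.

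Where a synthetase had several probe sets, they often disagreed, and the brightest tended to show the less positive or more negative difference. Of 84 synthetase probe sets above the filter, 27 had all tumorigenic lines higher and 4 all lower, beside 21.3% and 16.9% of all probe sets above it. Of the 22 genes with 2 or more probe sets above the filter, 8 had differences of both signs and 16 had differences spread over more than 0.5. In 21 of the 22 the median of the other probe sets lay above the brightest, FARS2 being the exception; over all 4678 genes with such probe sets the same held in 72.4%. The median difference was 0.05 over the brightest probe sets and 0.45 over the other probe sets of these genes, beside 0.02 and 0.16 for all such genes. When the probe sets of each gene were averaged, RARS and VARS2 were again the genes that passed (13% of all genes), and the cytosolic median was 0.25.

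IARS had the widest disagreement. Its brightest probe set differed by -0.78 and the other 4 by 0.48, -0.27, 0.39 and 0.69, so the direction of this gene is not settled by the array. WARS, the tryptophan enzyme and a known target of interferon-gamma, differed by 0.11 on its brightest probe set and by 0.67, 0.80 and 0.45 on the next ones, none of which passed. KARS, for lysine, differed by 0.23 and 0.14 on its brighter probe sets and by 0.74 and 0.86 on the dimmer ones. The dimmer KARS pair read lowest in UWKOS8, at 9.30 and 8.98, and next lowest in UWKOS6, at 9.63 and 9.74. The brighter pair read 12.45 and 12.61 in UWKOS8. That line was again the lowest on the brightest probe set, but UWKOS1 was the lowest on the next one.

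**Figure D3:**
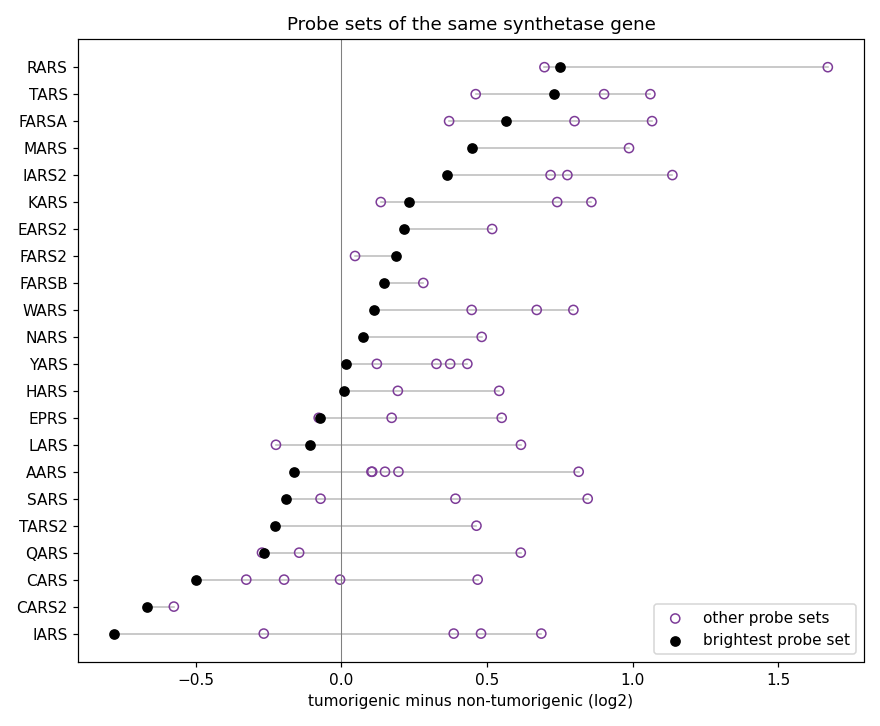
Each row is 1 of the 22 synthetase genes with 2 or more probe sets above the filter, and each circle a probe set's tumorigenic minus non-tumorigenic difference in log2 signal; the filled circle is the brightest probe set. Most open circles lie to the right of the filled one, and in IARS they run from -0.27 to 0.69 while the filled circle is at -0.78.

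This disagreement between probe sets moved with particular lines. Relative to the brightest probe set of the same gene, and to the mean of that gap over the lines, the other probe sets were lower in UWKOS6 in 21 of 22 genes (median -0.32) and in UWKOS8 in 21 of 22 (median -0.27). The medians were 0.31 in UWKOS1, 0.24 in UWKOS3, 0.07 in UWKOS7 and -0.05 in UWKOS2. Over all 4678 genes the gap was below 0 in 69.3% in UWKOS6 and 71.8% in UWKOS8, with medians of -0.12 and -0.18. The mean difference between the 3' and 5' ends of 4 actin and GAPDH control pairs was 1.55 in UWKOS6 and 1.48 in UWKOS8, against 0.53 to 0.81 in the other lines. Between the groups that measure was not separated (two-sided exact permutation p = 0.2, n = 3, where 0.1 is the smallest possible). The part of transcript ends in the differences of the synthetases was not tested beyond a fit with the measure as a covariate, in which RARS differed by 0.64 and VARS2 by 0.88 without passing (limma adjusted p = 0.259 and 0.258) and 0.12% of genes passed in all. With the Gapdh pair alone as the covariate, 0 synthetases and 0.109% of genes passed.

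Of 10 tested genes for further charging and editing steps, 2 rose and 0 fell, beside 7.5% and 4.63% of all genes. All 10 differences were positive, beside 52.6% of all genes, with a median of 0.53. DTD2, which removes wrongly attached amino acids from tRNA, rose by 1.97 (limma adjusted p = 0.0434), at 9.71, 9.81 and 8.09 in UWKOS1, UWKOS3 and UWKOS7 and 7.26, 7.18 and 7.25 in the others. GATC, a subunit of the enzyme that completes mitochondrial glutaminyl-tRNA, rose by 0.94 (limma adjusted p = 0.0475), at 9.74, 9.54 and 9.26 against 8.92, 8.55 and 8.26. Its partners GATB and QRSL1 differed by 0.54 and 0.43 and did not pass. GATB averaged above the filter value of 6.07 in the tumorigenic group only (6.44 against 5.90). Its place among the 10 positive differences therefore leaned on the group where it was high. TARS3 lay below the filter, with a difference of -0.31.

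Genes for making tRNA and for mitochondrial translation held called members that were all higher. The shares called were 16.7% for tRNA export, processing and modification, 16.4% for mitochondrial ribosomal proteins and 18.2% for mitochondrial translation factors, beside 12.1% of all genes, of which 7.5% were called higher and 21.7% had all tumorigenic lines higher. Of 24 tested genes of tRNA export, processing and modification, 4 rose, 0 fell and 18 had all tumorigenic lines higher; the median was 0.64. They were RTCB, the tRNA ligase (1.37), POP5 (1.29) and POP1 (0.92) of RNase P, and ELAC2 (1.27), which trims the 3' end. Of 73 mitochondrial ribosomal proteins 12 rose, 0 fell and 38 had all tumorigenic lines higher, with a median of 0.50; MRPL50 (1.27), MRPL39 (0.90), MRPS26 (0.88), MRPL32 (1.32), MRPS10 (1.91) and MRPL15 (0.95) had the smallest p-values. LRPPRC (1.5) and MRRF (1.45) rose among 11 mitochondrial translation factors. The cytosolic elongation factors, with which VARS associates, held 0 called of 6, with EEF1D at 0.53 (limma adjusted p = 0.0511) and 2 of 6 at an unadjusted limma p under 0.05. Among 13 genes of eIF2, eIF2B and the kinases, EIF2S1 rose by 1.19 (limma adjusted p = 0.0376). It was the 1 called (7.69%, beside 12.1% of all genes), and 7 of the 13 had all tumorigenic lines higher, beside 21.7%. The difference between these lists and the synthetases was not tested, and without UWKOS6 0 of the 206 genes in all lists set beside the synthetases passed, where 12 of 9145 did overall.

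**Figure D4:**
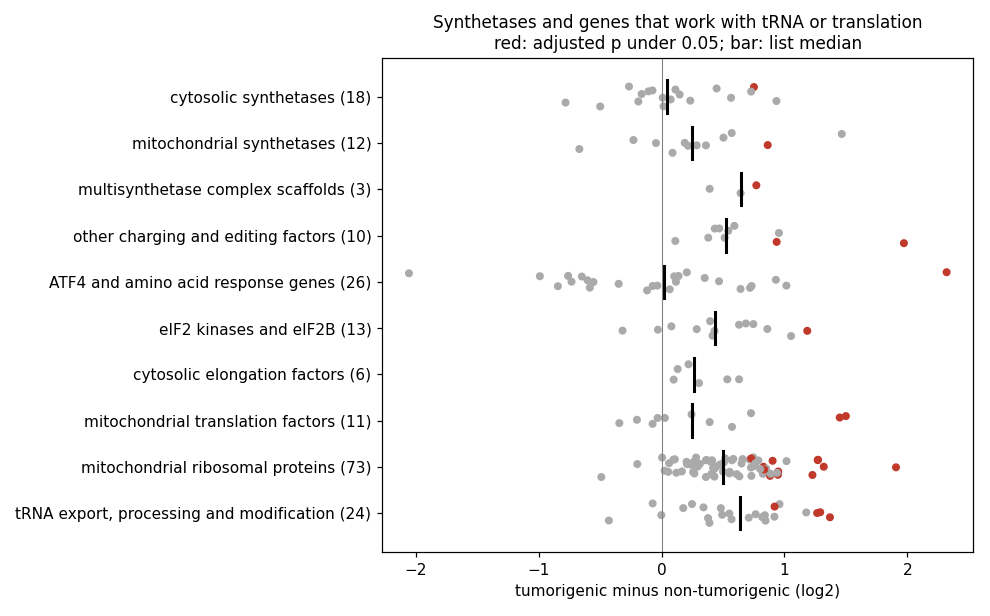
Each point is a gene's tumorigenic minus non-tumorigenic difference in log2 signal, by list, with the number of tested genes in brackets; red marks an adjusted p under 0.05 and the bar the list's median. The bars stand at 0.05 for cytosolic and 0.25 for mitochondrial synthetases, 0.50 for mitochondrial ribosomal proteins and 0.64 for tRNA processing.

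Of 14 proliferation genes 7 rose and 0 fell in the tumorigenic lines, 11 of 14 had all tumorigenic lines higher (7.5% and 21.7% of all genes were called higher and all higher) and the median was 1.39, and their part in the synthetase differences was not tested. In such bulk RNA, fewer cells of a kind and less RNA per cell cannot be told apart. Their summed linear signal ran from 48319 to 52806 in the tumorigenic lines and from 17858 to 36376 in the others. Among genes of the interferon-gamma response, which WARS belongs to, 0 of 11 rose and 1 fell, beside 7.5% and 4.63% of all genes. The 1 was B2M, which fell by 1.14 (limma adjusted p = 0.0231). Differences in this list went both ways, with a median of -0.07. GBP5 had all tumorigenic lines higher (1.48, limma adjusted p = 0.0704) and IRF9 all lower (-1.29, limma adjusted p = 0.0654), and neither passed.

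For the labelled cell type, the bone matrix genes COL1A1, COL1A2 and SPARC read above 12 in every line. RUNX2, the osteoblast transcription factor, averaged close to the filter value, ALPL and IBSP lay below it, and SP7 had no probe set. The secreted bone protein SPP1 read 9.76 in UWKOS1 and at most 3.30 elsewhere. The osteoblast genes RUNX2, BGLAP, COL1A1, COL1A2 and SPARC were tested together with the mesenchymal genes VIM, COL3A1 and COL5A1. Of these 8 genes 0 were called and 3 had an unadjusted limma p under 0.05 (12.1% and 32% of all genes). Their median difference was -0.72, and BGLAP differed by -0.44. Of 9 leukocyte markers, 5 lay below the filter, among them PTPRC at 4.86 to 5.17. The other 4 passed it and none was called: LAPTM5 read 7.52 to 8.14, CD68 5.71 to 7.68, CD14 5.87 to 6.28 and CD3E 5.71 to 6.57. Their summed linear signal, over all 9, ran from 550 to 717 in the tumorigenic and from 714 to 821 in the non-tumorigenic lines, and its part in the results was not tested. The epithelial gene EPCAM read 7.65 in UWKOS1 and at most 4.0 elsewhere, and KRT8 read 6.49 in UWKOS1, 6.64 in UWKOS3 and at most 3.04 elsewhere. KRT7 was the epithelial gene above the filter and rose by 0.81 (limma adjusted p = 0.0445), while CDH1 read at most 4.26. Over the 5 measured epithelial genes the summed linear signal ran from 213 to 580 in the tumorigenic and from 129 to 166 in the non-tumorigenic lines, and its part in the results was not tested. Of 6 endothelial genes 3 passed the filter and 0 were called (12.1% of all genes). KDR had all tumorigenic lines higher (1.11), while CDH5 (-0.04) and TIE1 (-0.10) overlapped. Without the filter PECAM1, at most 5.17, passed (0.84, limma adjusted p = 0.0412), as did 6.62% of genes, and TEK was all lower (-0.25). The summed linear signal over all 6 ran from 502 to 682 in the tumorigenic and from 455 to 466 in the other lines. Its part was not tested.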

How the data were processed

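The authors deposited log2 signals for 43035 probe sets of an Affymetrix canine array, 1 array for each of 6 lines; per the submitters' processing notes MAS5 was used, with no version named, and how the arrays were scaled is not given in the sources used here. Array medians lay between 6.03 and 6.05. The values were used as deposited, and 0 columns were left out. Control probe sets (111) served only for control measures. Symbols came from the platform annotation and, for 27680 of the 29254 probe sets with 1 symbol, were brought to current names by gene identifier with RefSeq's UU_Cfam_GSD_1.0 gene table. A gene entered the test if its brightest probe set averaged 6.07 or more, which is the median over the non-control probe sets. Differences were fitted in limma 3.58.1 under R 4.3.3 (lmFit then eBayes, without covariates) over 9145 genes, with Benjamini-Hochberg adjustment over all of them and a threshold of 0.05. The fit was tested on simulated data. Full values are given for synthetases that passed, the next 8 by p, and those whose groups did not overlap; other lists are named by called members, at most 6 by smallest p, and further genes were named after their values were seen. The members and lists were chosen with earlier results of these data known. Alternatives changed the filter, the scaling, the variance model, the probe set rule, the lines in the fit and a transcript-end covariate; the covariate from 4 control pairs was added after seeing the data. With 3 arrays a group, their number limits precision. Figures were drawn with matplotlib 3.10.9.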

Additional observations from a re-analysis of the deposited data

How the results depend on the processing

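Of 503 combinations of synthetase and alternative, 440 kept direction and call, 19 lost the call, 5 gained one and 39 changed sign, none of the last being a called difference; 15 genes kept their sign in every alternative run for them, which was 17, or 16 for EARS2, NARS2, SARS2, VARS2 and YARS2. The cause of each change was not tested.

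Of the 2 synthetases called, 1 was called with the upper-quartile filter (which left VARS2 out of the test), 1 under quantile normalization and 1 with centring on the 75th percentile. Centring on hybridization controls, which moved the median of all genes from 0.03 to 0.21, gave 5 (RARS, TARS, VARS, VARS2 and YARS2). Without both UWKOS6 and UWKOS8, and with the Gapdh or the mean control-pair covariate (the latter chosen after seeing the data), 0 were called, and leaving out 1 line gave 0 to 2. Of all genes, 1109 were called, but 1 without both lines, 10 and 11 with these covariates, and 12 (without UWKOS6) to 1313 (without UWKOS7) with 1 line left out. In the lists beside the synthetases 32 genes were called, 56 with hybridization controls, 0 without both lines, 0 with either covariate, and 0 to 42 with 1 line left out. The cytosolic median of 0.05 became 0.22 with hybridization controls, 0.25 with averaged probe sets, and -0.024 to 0.24 with 1 line left out. The mitochondrial median of 0.25 became 0.089 with the upper-quartile filter, 0.42 with hybridization controls, 0.16 with the Gapdh covariate, and 0.17 to 0.33 with 1 line left out.

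Signs changed as follows. With hybridization controls AARS was at 0.011, AARS2 0.13, EPRS 0.10 and LARS 0.067. With averaged probe sets AARS was at 0.20, EPRS 0.14, IARS 0.10, LARS 0.10, SARS 0.24 and TARS2 0.12. With the Gapdh covariate AARS was at 0.052 and EPRS at 0.0046. Under quantile normalization HARS was at -0.049 and YARS at -0.063, and with centring on the 75th percentile HARS was at -0.069, NARS at -0.0037 and YARS at -0.062. Without both UWKOS6 and UWKOS8 HARS2 was at -0.15, NARS at -0.018, WARS at -0.0057 and YARS at -0.15. With 1 line left out the differences ran from -0.45 to 0.26 in AARS, -0.18 to 0.043 in AARS2, -0.14 to 0.029 in EPRS, -0.026 to 0.48 in FARS2, -0.035 to 0.29 in FARSB, -0.15 to 0.30 in HARS, -0.055 to 0.60 in HARS2, -0.46 to 0.10 in LARS, -0.083 to 0.22 in NARS, -0.045 to 0.19 in RARS2 and -0.47 to 0.46 in YARS.

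No paired analysis was possible because the replicate numbers follow the order of deposit and pair no lines. Signals near the filter value are not known to exceed background, which limits YARS2, SARS2, EARS2, HARS2, AARS2 and NARS2.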
